A study of Mus musculus with 6 samples.

Results

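Molecular chaperones and heat shock proteins were examined in cells sorted from the embryonic mouse cortex after they received a hairpin for the microRNA miR-3607 (Mir) or a scrambled hairpin (Scr). The genes were chosen by symbol: protein-coding genes of the Hspa, Hspb, Hspd, Hspe, Hsph, Hsp90, Dnaja, Dnajb, Dnajc and Cct families, together with Tcp1, Hsf1, Hsf2 and Bag3, with at least 10 counts in 3 or more libraries. Of 87 genes that matched by symbol among the 54146 genes counted, 74 met this minimum, and over all genes 16981 did. Of the 74 genes, 73 passed the expression filter of the statistical model and were tested; the exception was Hspa1b. The rule used symbols and counts and no measured change, but it was set with earlier results of these data known.

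The series measured how overexpression of miR-3607 alters gene expression in cortical progenitors, by RNA sequencing of 3 Mir and 3 Scr libraries. Wild-type embryos were electroporated in utero at E14.5, and GFP-positive cells were sorted 24 hours later, at E15.5. Mir embryos received a plasmid that transcribes the miR-3607 hairpin from the U6 promoter. Scr embryos received the same vector with a scrambled hairpin that serves as its negative control. Both groups also received a GFP plasmid driven by the ubiquitous CAG promoter, at 0.7 µg/µl beside 1 µg/µl of hairpin plasmid, so GFP marked any cell that took up DNA and not a defined cell type. Cells of 2 embryos were pooled for each library, and the 3 pools of a group were independent. The labels give the strain as ICR in one place and as C57BL/6 in another. The counts hold no measure of the hairpin itself.

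Chaperones bind proteins that are not yet folded, or that have lost their fold, and help them reach a working shape. HSP70 proteins do this in cycles of ATP hydrolysis that J-domain proteins (the DNAJ families) start and that HSP110 proteins reset by exchanging ADP for ATP; HSP90 takes over many signalling proteins at a late step, and the ring-shaped TRiC/CCT complex folds tubulin and actin, which neurons need in bulk as they migrate and grow processes. The endoplasmic reticulum (ER) and the mitochondrion hold chaperones of their own. Under heat or proteotoxic stress the factor HSF1 binds heat shock elements in promoters and induces many of these genes, while the unfolded protein response acts on ER chaperones through ER stress elements.

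Libraries held 14671557 to 15847663 counts in genes in the Mir group and 12724511 to 16684038 in the Scr group. Progenitor markers were present at high levels: in CPM (gene counts relative to library size), Eomes, a marker of intermediate progenitors, reached 479, 524 and 270.4 in Mir libraries, against 363, 173 and 274 in Scr libraries. The 13 radial glia markers summed to 2455 to 3183 CPM in Mir libraries and 1747 to 2506 CPM in Scr libraries, while the 13 excitatory neuron markers summed to 4796 to 5376 CPM in Mir and 5791 to 7486 CPM in Scr libraries, so the sorted cells were a mixture of progenitors and young neurons. In summed inhibitory neuron markers, Mir replicate 3 and Scr replicate 2 differed most from the other libraries of their own group, at 428 and 1219 CPM. Mir replicates 1 and 2 had 197 and 182 CPM, and Scr replicates 1 and 3 had 327 and 457 CPM. Mir replicate 3 thus lay within the range of the Scr libraries. Summed erythroid markers were 53.6, 1.73 and 581 CPM in Mir libraries, against 249, 867 and 570.0 CPM in Scr libraries. In such bulk samples, a lower share of cells of a type and less RNA of a gene per cell cannot be told apart.

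The chaperone genes differed little between the groups, and none passed the test. With edgeR's quasi-likelihood test and adjustment over all 16897 genes tested, 0 of 73 chaperone genes had an adjusted p under 0.05, where 0.00592% of all genes did (1 gene, lower in Mir). At an unadjusted p under 0.05, 4 chaperone genes were higher in Mir (6.57% of all genes tested were) and 6 were lower (7.93% of all genes were). DESeq2 called 0 of the 73 in either direction, while it called 1.46% of all genes higher and 1.97% lower. It gave no adjusted p to 3612 of the 16897 genes, among them Bag3, Cct6b, Hspa12b and Hspb8, and these were counted as not called. Its smallest adjusted p was 0.0553, for Hspe1 (0.0553 to 0.604 over all alternatives), followed by 0.0855 for Hspa4l (0.0855 to 0.579) and 0.106 for Hspa4 (0.106 to 0.604). In 12 of the 73 genes (16.4%) every Mir library lay above every Scr library, against 9.72% of all genes tested, and in 7 (9.59%) every Mir library lay below, against 10.3% of all genes.

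The size of the differences was small as well. The median absolute log2 fold change was 0.12 over the 73 genes and 0.20 over all genes tested. On the log2 scale 53 of the 73 (72.6%) lay within 0.25 of zero, against 57.9% of all genes. For genes averaging at least 10 CPM, the median was 0.09 over 61 chaperone genes and 0.15 over 10425 genes. Of these, 80.3% and 69.5% lay within 0.25 of zero. The 61 chaperone genes also had a higher median level, at 89.0 against 50.6 CPM. Their median SD within groups was lower, at 0.12 against 0.16 on the log2 scale. Hspa12a alone differed by more than 1 on that scale. The median log2 fold change was 0.03 over the 73 genes and -0.01 over all genes, and 45 of the 73 had the higher mean in Mir (61.6%, against 48.8% of all genes). Without Mir replicate 3 and Scr replicate 2, 34 of the 73 (46.6%) had the higher mean in Mir and the median was -0.004. That slight excess was thus absent without those libraries. Leaving out single libraries moved the median between -0.013 and 0.076, and the cause was not tested. Together the 74 genes took 1.23 to 1.30% of CPM in Mir libraries and 1.19 to 1.31% in Scr libraries.

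**Figure D1:**
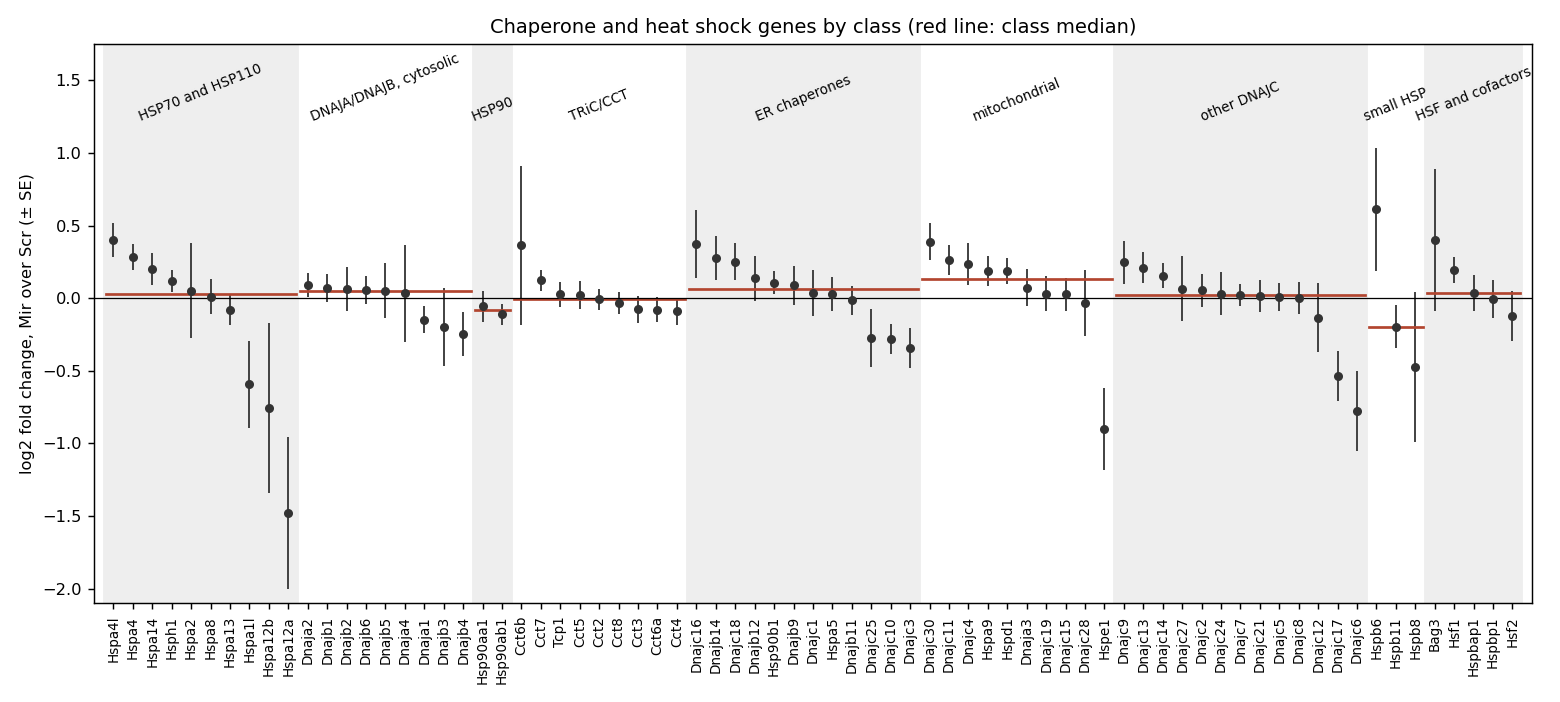
Log2 fold change of Mir over Scr with its standard error (vertical axis) for the 73 genes tested, grouped by class; the red line is the class median. Class medians lie between -0.20 and 0.13, and the genes far from zero, such as Hspa12a at -1.48, have long error bars.

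Levels were compared between genes as CPM per kb of exon. Cytosolic HSP90 stood highest: Hsp90ab1, the constitutive HSP90 gene, averaged 407 ± 29 CPM per kb in Mir and 440 ± 6.6 in Scr libraries (SD, n = 3 each). Next came the TRiC subunits Cct5 (283 ± 12 in Mir, 278 ± 32 in Scr), Cct8 (226 ± 9.4 in Mir, 231 ± 16 in Scr) and Cct6a (216 ± 13 in Mir, 228 ± 17 in Scr). The ER chaperones Hspa5 (186 ± 8.3 in Mir, 182 ± 29 in Scr) and Hsp90b1 (152 ± 3.6 in Mir, 142 ± 9.6 in Scr) followed, with Cct2 and Tcp1 completing the 8 genes of highest level. TRiC/CCT genes held 40.7% of the CPM of the 74 genes, ER chaperones 14.4% and the HSP90 pair 12.9%. Averaged over both groups, the lowest levels were those of Hspa12b, at 0.183 ± 0.034 CPM per kb in Mir and 0.314 ± 0.21 in Scr libraries, and of Hspa1b, the heat-inducible HSP70, at 0.304 ± 0.080 in Mir and 0.169 ± 0.053 in Scr libraries.

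**Figure D2:**
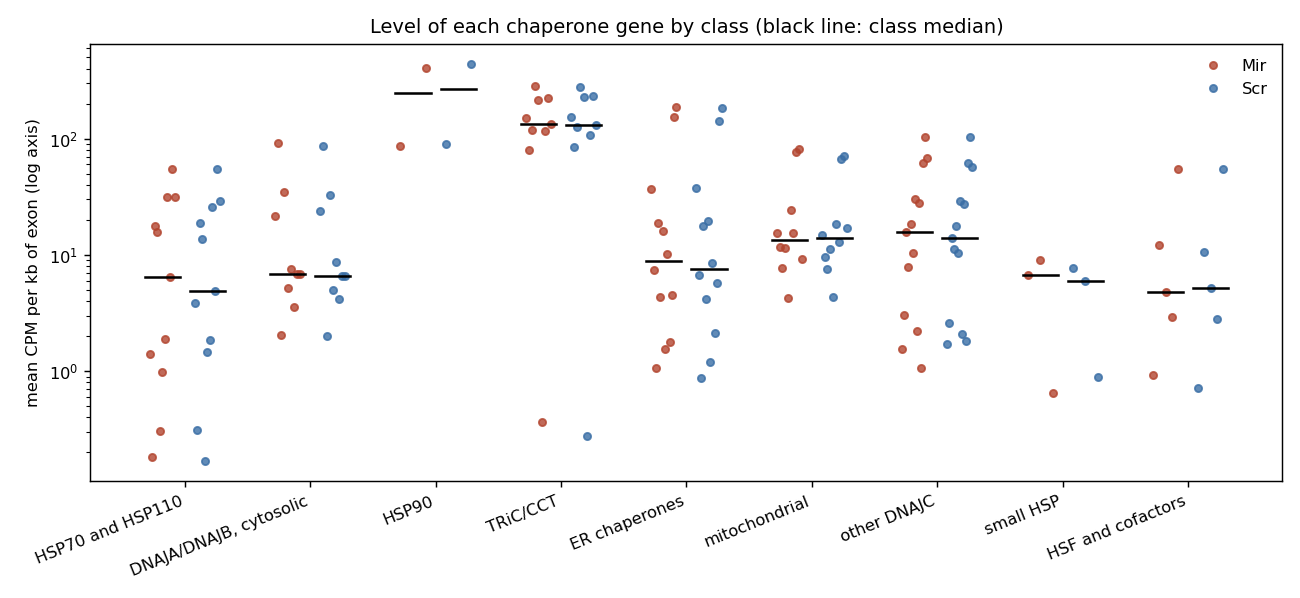
Mean CPM per kb of exon (log axis) of each of the 74 genes in Mir (red, left) and Scr (blue, right) libraries by class, with the class median as a black line. HSP90 and TRiC/CCT stand highest in both groups, with medians over both groups of 256 and 133 CPM per kb.

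Among HSP70 and HSP110 genes, the members of the HSP110 family had the higher mean in Mir libraries, by a modest amount. Hspa4l (chr3:40744495-40796103 on GRCm38), an HSP110-type nucleotide exchange factor, had 75.9, 72.0 and 79.5 CPM in Mir libraries, against 66.7, 51.1 and 54.4 CPM in Scr libraries. All Mir values lay above all Scr values, with the nearest Scr value in replicate 1. Its log2 fold change was 0.40 with an SE of 0.12 (edgeR adjusted p = 0.240), the smallest among the 73 genes. Hspa4 (chr11:53259814-53300457), its close relative, had 166, 173 and 179 CPM in Mir libraries, against 138, 133 and 154 CPM in Scr libraries, a log2 fold change of 0.29 ± 0.09 (edgeR adjusted p = 0.255). Here too the groups were separate. Hsph1, the stress-inducible HSP110 gene, had 230.5, 226 and 232 CPM in Mir libraries, against 219, 203 and 212 CPM in Scr libraries, at 0.12 ± 0.08 (edgeR adjusted p = 0.498). For Hspa4l and Hspa4 the fold change kept its sign without any single library, and was 0.29 and 0.21 without Mir replicate 3 and Scr replicate 2.

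Values of the HSP70 genes proper were mixed. Hspa8, the constitutive cytosolic HSP70, had 221, 242 and 244 CPM in Mir libraries, against 273, 205 and 223 CPM in Scr libraries. The groups overlapped, and the log2 fold change was 0.01 with a 95% interval from -0.27 to 0.29. Reads of Hspa8 can be shared with processed copies, since 39.4% of the 50-base windows along its transcripts also occur in another gene. With the uniquely placed reads of 9 pseudogenes added, the log2 ratio of mean CPM was 0.01. Reads placed in several loci are in neither count, so this sum cannot recover them. Hspa14, a ribosome-associated HSP70, had 59.8, 59.9 and 71.0 CPM in Mir libraries, against 50.8, 57.5 and 57.6 CPM in Scr libraries. Its groups were separate by a narrow margin, at 0.20 ± 0.11 (edgeR adjusted p = 0.440). Hspa13 and Hspa2, a microsomal and a testis-rich HSP70, overlapped between groups.

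Hspa12a, a divergent HSP70 relative rich in adult brain, had the widest spread of all. It had 9.09, 5.94 and 23.4 CPM in Mir libraries, against 22.1, 52.7 and 32.1 CPM in Scr libraries. Mir replicate 3 lay above Scr replicate 1, so the groups overlapped, and the log2 fold change was -1.48 ± 0.52 (edgeR adjusted p = 0.282). Without Mir replicate 3 the log2 fold change was -2.24, and without Scr replicate 2 it was -1.09. From lowest to highest, the libraries ranked in the order Mir 2, Mir 1, Scr 1, Mir 3, Scr 3 and Scr 2, and the summed inhibitory neuron markers, at 197, 182 and 428 CPM in Mir libraries and 327, 1219 and 457 CPM in Scr libraries, ranked in the same order. Among those 11 markers all 11 had the lower mean in Mir, none was at 0 in any library, and Gad2, an enzyme of GABA synthesis, had 22.1, 16.8 and 45.9 CPM in Mir against 39.97, 144 and 52.3 CPM in Scr libraries. Taken singly, 7 of the 11 inhibitory neuron markers had exactly this order of libraries. So did 3 of the 13 excitatory neuron markers, 1 of the 8 erythroid markers and 217 of all 16897 genes tested (1.28%). The excitatory markers were Syt1, Gap43 and Stmn2, and Stmn2, a microtubule regulator of growing neurons, had 188, 113 and 371 CPM in Mir libraries, against 354, 778 and 524 CPM in Scr libraries. This order was noticed after the values were seen, and its part in the difference was not tested. Hspa12b, its endothelial relative, had under 2 CPM in every library.

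Of the heat-inducible genes, Hspa1a, Hspa1b and Hspb1 were near the limit of detection in both groups. Hsph1, Dnajb1 and Hsp90aa1, also inducible, were well above it. Hspa1a had 5, 3 and 3 counts in Mir libraries and 3, 2 and 4 in Scr libraries, and so fell below the minimum. Hspa1b (chr17:34956436-34959238) had 10, 13 and 16 counts in Mir libraries, against 4, 7 and 10 in Scr libraries, and was too low to be fitted. In CPM its groups were separate, at 0.636, 0.830 and 1.09 in Mir libraries, against 0.312, 0.507 and 0.602 in Scr libraries. These neighbours are near-identical, with 66.3% of windows of Hspa1a and 62.3% of Hspa1b shared with another gene, so counts of uniquely placed reads can miss part of both. Hspa1l, the third gene of the cluster, had 2.03, 2.43 and 2.78 CPM in Mir libraries, against 2.96, 3.26 and 4.70 CPM in Scr libraries. Its values were separate, but 71.9% of its exon length is overlapped by Gm10501 on the opposite strand, and the library kit does not mark strand; its adjusted p was 0.409 by edgeR. Hspb1, the small HSP most often induced by heat, had 0, 3 and 6 counts in Mir libraries and 4, 8 and 0 in Scr libraries.

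**Figure D3:**
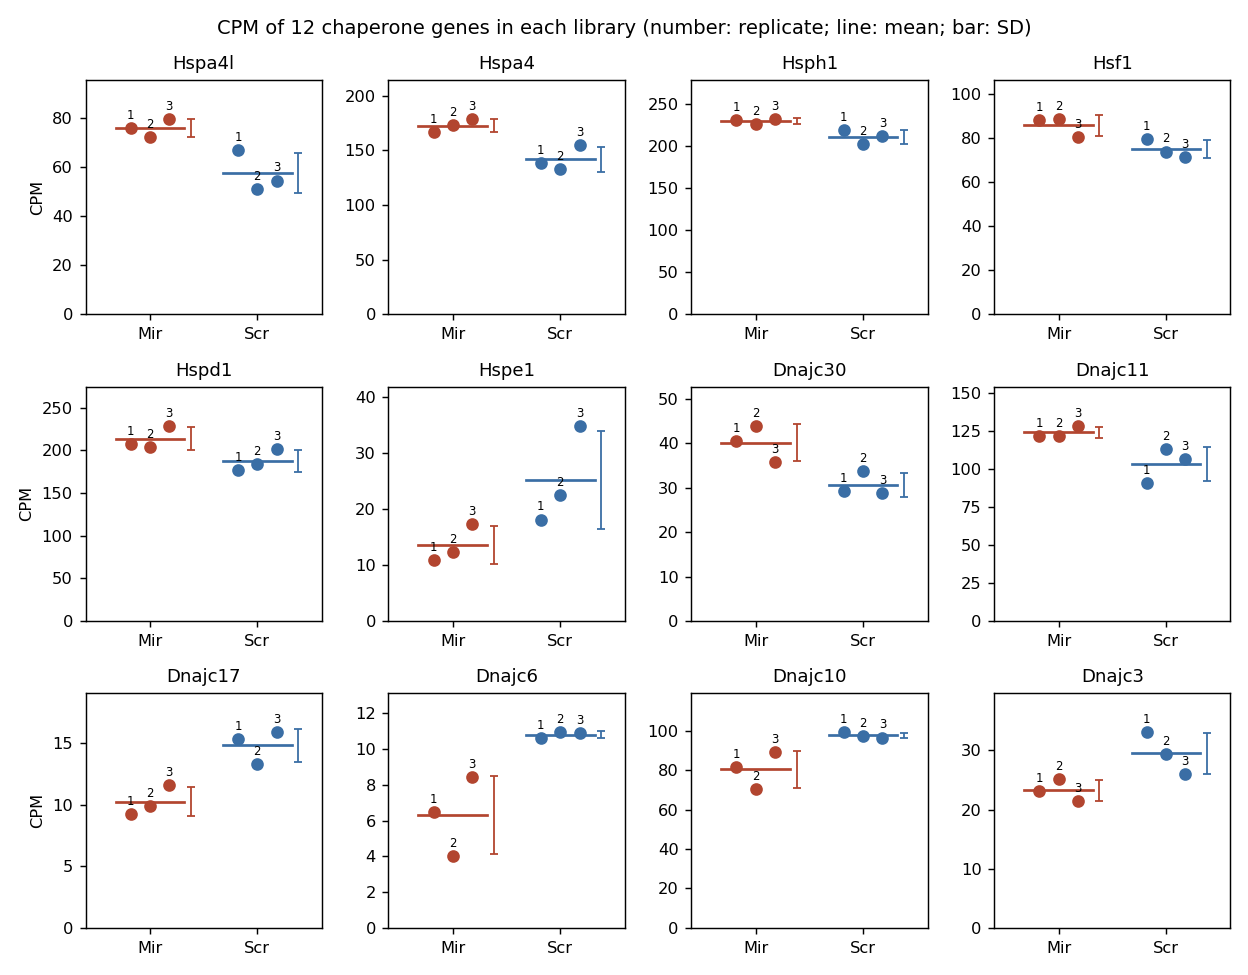
CPM (vertical axes, from 0) of 12 chaperone genes in each Mir (red, left) and Scr (blue, right) library; numbers are replicates, lines are means and bars are SDs, n = 3 each. All 12 were taken from the genes with separate groups, so their separation follows from the choice. For Hspa4l, Mir libraries ran from 72.0 to 79.5 CPM and Scr libraries from 51.1 to 66.7 CPM. Of the 73 genes tested, 12 (16.4%) were higher in every Mir library, against 9.72% of all genes. Another 7 (9.59%) were lower, against 10.3% of all genes. No edgeR adjusted p among the 73 genes is under 0.240 and no DESeq2 adjusted p is under 0.0553.

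The J-domain proteins that start the HSP70 cycle in the cytosol and nucleus differed little between the groups. All 9 cytosolic DNAJA and DNAJB genes had overlapping values, with log2 fold changes from -0.24 to 0.09 and a median of 0.05. Dnajb1, the J protein induced with HSP70 by heat, had 109, 114 and 110.1 CPM in Mir libraries, against 112, 93.5 and 112 CPM in Scr libraries. Only Scr replicate 2 was low, and the log2 fold change was 0.07 with a 95% interval from -0.16 to 0.30. Dnaja1 had 198, 188 and 171 CPM in Mir libraries, against 192, 202 and 223 CPM in Scr libraries, at -0.15 ± 0.10. Dnajb6, which holds back protein aggregation, had 41.3, 43.3 and 38.9 CPM in Mir and 39.3, 39.9 and 39.7 CPM in Scr libraries, at 0.06 ± 0.10. Dnaja2, the most abundant of the class per kb, averaged 92.0 ± 2.1 CPM per kb in Mir and 86.4 ± 6.7 in Scr libraries.

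The specialised DNAJC genes included 2 whose means were well below those of Scr libraries, without passing the test. Dnajc6 (chr4:101496648-101642799) encodes auxilin, which recruits HSP70 to strip clathrin from synaptic vesicles, and had 6.49, 4.02 and 8.41 CPM in Mir libraries, against 10.6, 10.9 and 10.9 CPM in Scr libraries. The Scr libraries were nearly equal and every Mir library lay below them. The log2 fold change was -0.78 ± 0.28 (edgeR adjusted p = 0.284). Dnajc17 (chr2:119172500-119208795), a nuclear J protein with an RNA-binding domain, had 9.22, 9.90 and 11.5 CPM in Mir libraries, against 15.3, 13.2 and 15.8 CPM in Scr libraries, and its log2 fold change was -0.53 ± 0.17 (edgeR adjusted p = 0.257). A pseudogene shares windows with Dnajc17. With the uniquely placed reads of that pseudogene added, the log2 ratio of means was -0.51, which leaves out reads placed in both. Dnajc5, the cysteine string protein of synaptic vesicles, averaged 193 ± 11 CPM in Mir and 192 ± 19 CPM in Scr libraries (SD, n = 3 each), at 0.01 ± 0.10 (SE). Dnajc7 and Dnajc8, a co-chaperone of HSP70 with HSP90 and a splicing-associated J protein, had log2 fold changes of 0.02 and -0.00.

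Dnajc9, a histone-binding J protein, was considered beside cell division. It had 167, 139 and 175 CPM in Mir libraries, against 135, 112 and 159 CPM in Scr libraries, with overlapping groups and a log2 fold change of 0.25 ± 0.15 (edgeR adjusted p = 0.484). The 10 cell division markers summed to 2548, 2330 and 2838 CPM in Mir libraries and 2124, 1568 and 2303 CPM in Scr libraries, and all 10 had the higher mean in Mir. Without Mir replicate 3 and Scr replicate 2, the log2 fold change of Dnajc9 was 0.06. The part of cell division in this difference was not tested.

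**Figure D4:**
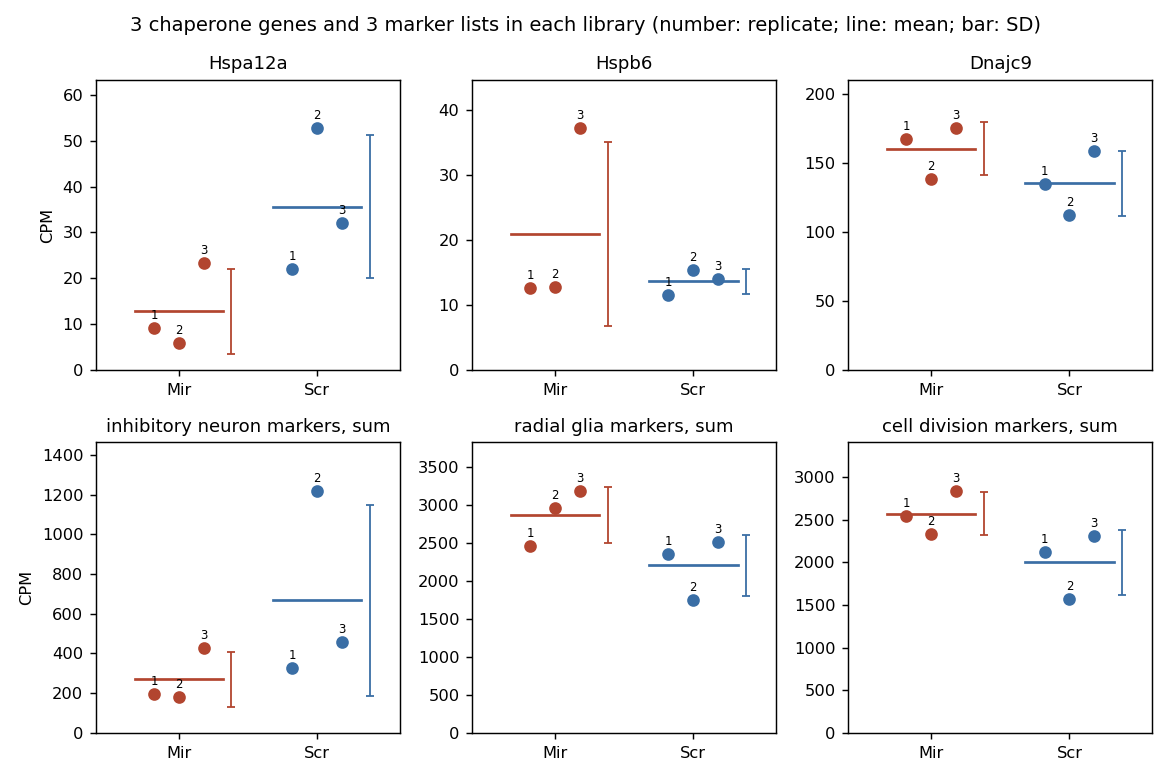
CPM (vertical axes, from 0) of Hspa12a, Hspb6 and Dnajc9 (top) and of the summed markers of inhibitory neurons, radial glia and cell division (bottom) in each Mir (red, left) and Scr (blue, right) library; lines are means and bars SDs, n = 3 each. Hspa12a and the inhibitory neuron markers rank the libraries alike, and Hspb6 is high in Mir replicate 3 at 37.2 CPM.

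Neither HSP90 gene passed the test, and the values of both overlapped between groups. Hsp90ab1 had 1174, 1164 and 1320 CPM in Mir libraries, against 1336, 1297 and 1321 CPM in Scr libraries. Mir replicate 3 reached the Scr range while the other Mir libraries lay under it, and the log2 fold change was -0.11 ± 0.07 with a 95% interval from -0.28 to 0.06. Hsp90aa1, the inducible HSP90, had 340, 326 and 360.5 CPM in Mir libraries, against 319, 344 and 405 CPM in Scr libraries, at -0.06 ± 0.10. It shares 47.5% of its windows with other genes. With the uniquely placed reads of 3 pseudogenes added, the log2 ratio of means was again -0.06, which leaves out reads placed in several loci. The direction of Hsp90aa1 depended on Scr replicate 3, without which the log2 fold change was 0.05.

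The TRiC/CCT ring differed little between the groups. Its 8 subunits, Tcp1 and Cct2 to Cct8 with Cct6a, had log2 fold changes from -0.09 (Cct4) to 0.12 (Cct7), with 3 higher and 5 lower in Mir and a median of -0.02. Over all 9 TRiC/CCT genes, 4 had the higher mean in Mir, or 1 with a median of -0.065 without Mir replicate 3 and Scr replicate 2. Cct2 had 380, 388 and 394 CPM in Mir libraries, against 378, 378 and 414 CPM in Scr libraries, and its 95% interval ran from -0.18 to 0.16. Cct5, the highest subunit per kb of exon, had 782, 750.3 and 815 CPM in Mir libraries, against 708, 731 and 872 CPM in Scr libraries. Tcp1, the founding subunit, had 688, 669 and 666 CPM in Mir libraries, against 619, 626 and 739 CPM in Scr libraries. Values overlapped between groups for each of the 8. The testis form Cct6b had at most 1.02 CPM in any library.

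The subunits assemble in equal numbers in the protein. Their shares of CPM per kb were unequal, in proportions that varied little between libraries. The divisor was the length of all annotated exons, which need not be the length of the transcripts present. It was 2766 bases for Cct5 and 6778 for Cct7, whose mean CPM in Mir libraries were 782 and 786. Differences in share between subunits therefore depend on that length. As shares of the ring's summed CPM per kb, Cct5 held 21.2 to 21.6% in Mir libraries and 19.96 to 21.6% in Scr libraries, while Cct3 held 5.80 to 6.27% in Mir and 6.09 to 6.51% in Scr libraries. Cct8 held 16.9 to 17.2% in Mir and 17.1 to 17.5% in Scr libraries. The share of Cct7 was 8.57, 9.09 and 8.65% in Mir libraries, against 8.08, 7.97 and 7.86% in Scr libraries, the groups being separate, though its CPM overlapped and its adjusted p was 0.485 by edgeR.

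**Figure D5:**
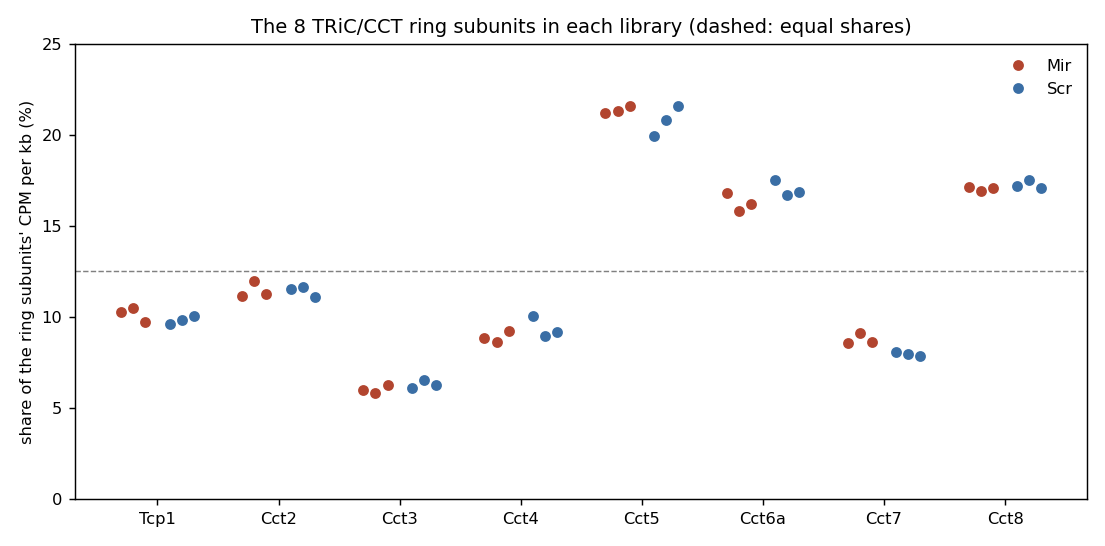
Share of the 8 TRiC/CCT ring subunits' summed CPM per kb (vertical axis, %) held by each subunit in each Mir (red, left) and Scr (blue, right) library; the dashed line marks equal shares. Shares ranged from 5.80% for Cct3 to 21.6% for Cct5 and varied far more between subunits than between libraries. Differences between subunits depend on the annotated exon length used as the divisor.

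ER chaperones differed little, with 2 of the 12 lower in every Mir library, where 10.3% of all genes tested were. Of the 12, 8 had the higher mean in Mir, where 48.8% of all genes tested did. Without Mir replicate 3 and Scr replicate 2, 6 of the 12 did, where 49.4% of all genes did. Hspa5 (BiP), the HSP70 of the ER and a standard read-out of the unfolded protein response, had 821, 789.5 and 751 CPM in Mir libraries, against 895, 649 and 772 CPM in Scr libraries. The groups overlapped, and the log2 fold change was 0.03 with a 95% interval from -0.24 to 0.30. Hsp90b1 (GRP94), the HSP90 of the ER, had 627, 599 and 618 CPM in Mir libraries, against 612, 535 and 566 CPM in Scr libraries, at 0.11 ± 0.08. Dnajc10, a J protein with disulfide reductase activity that helps clear misfolded ER proteins, had 81.5, 70.5 and 89.3 CPM in Mir libraries, against 99.1, 97.2 and 96.5 CPM in Scr libraries. Its Scr libraries lay close together above all Mir libraries, and its log2 fold change was -0.28 ± 0.10 (edgeR adjusted p = 0.296). Dnajc3, an ER co-chaperone of BiP, had 23.2, 25.1 and 21.5 CPM in Mir libraries, against 33.0, 29.3 and 26.1 CPM in Scr libraries, at -0.34 ± 0.14 (edgeR adjusted p = 0.324). Dnajb9 and Dnajb11, J proteins that serve BiP, had log2 fold changes of 0.09 and -0.01 with overlapping values, and Dnajb14 was higher in every Mir library at 0.28 ± 0.15 (edgeR adjusted p = 0.440).

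Promoters were searched for the ER stress element, spelt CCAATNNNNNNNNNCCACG, on both strands within 250 bases before and 50 bases after each RefSeq start site (GRCm38.p6). It was found in 3 of the 61 chaperone genes with a promoter in the table (4.92%), namely Hspa5, Hsp90b1 and Dnajc3, and in 29 of 17492 protein-coding genes (0.166%). The matches are shown because these genes carry the same letters. Their log2 fold changes were 0.03, 0.11 and -0.34, and none passed the test. The 95% intervals ran from -0.24 to 0.30, from -0.07 to 0.28 and from -0.66 to -0.02. The stretch of the Hspa5 promoter is chr2:34771980-34772079 on the plus strand, with the match in capitals:
Hspa5: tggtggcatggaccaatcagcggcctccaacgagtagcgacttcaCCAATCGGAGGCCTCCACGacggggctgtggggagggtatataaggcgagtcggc
The Dnajc3 match starts 105 bases before the start site of that gene, in the window chr14:118937682-118937981 on the plus strand. The Hsp90b1 window chr10:86705395-86705694 on the minus strand holds a match in each direction:
Dnajc3: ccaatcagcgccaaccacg
Hsp90b1, direct: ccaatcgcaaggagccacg
Hsp90b1, inverted: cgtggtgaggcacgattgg

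None of the 10 mitochondrial chaperones passed the test. Of the 10, 8 had the higher mean in Mir, where 48.8% of all genes tested did, and 4 had every Mir library above every Scr library, where 9.72% of all genes did. The class median was 0.13. Without Mir replicate 3 and Scr replicate 2, 7 of the 10 had the higher mean and the median was 0.08. Hspd1 (HSP60), the folding chamber of the mitochondrial matrix, had 207, 204 and 229 CPM in Mir libraries, against 177, 185 and 202 CPM in Scr libraries. The groups were separate, and the log2 fold change was 0.19 ± 0.09 (edgeR adjusted p = 0.395). Hspe1 (HSP10), the lid of that chamber, had 10.9, 12.4 and 17.4 CPM in Mir libraries, against 18.2, 22.6 and 34.9 CPM in Scr libraries. It was lower in every Mir library, narrowly so between Mir replicate 3 and Scr replicate 1, at -0.90 ± 0.28 (edgeR adjusted p = 0.252). Its fold change ranged from -1.12 to -0.58 when single libraries were left out.

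The level of Hspe1 was far below that of its partner: 9.19 ± 2.3 CPM per kb in Mir and 17.1 ± 5.9 in Scr libraries, against 80.8 ± 5.1 in Mir and 71.0 ± 4.8 in Scr libraries for Hspd1. Of the windows along Hspe1 transcripts 22.8% also occur in another gene, and of those along Hspd1 42.1% do, so reads placed in several loci can be missing from both. With the uniquely placed reads of 2 Hspd1 pseudogenes added, the log2 ratio of mean CPM was 0.18. That sum does not recover reads placed in several loci. Hspa9 (mortalin), the matrix HSP70 that drives import, had 326, 290.4 and 373 CPM in Mir libraries, against 304, 281 and 284 CPM in Scr libraries, at 0.19 ± 0.10 with overlapping groups. Dnajc11, a J protein of the cristae-organising complex, had 122, 121 and 128 CPM in Mir libraries, against 90.6, 113 and 106 CPM in Scr libraries, at 0.26 ± 0.10 (edgeR adjusted p = 0.312). Dnajc30, which binds the ATP synthase, had 40.6, 44.0 and 35.8 CPM in Mir libraries, against 29.3, 33.8 and 28.9 CPM in Scr libraries, at 0.39 ± 0.13 (edgeR adjusted p = 0.262). Of the exon length of Dnajc30, 26.2% is overlapped by Bud23 on the opposite strand, whose reads cannot be told apart there.

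Hspd1 (chr1:55077835-55088243, minus strand) and Hspe1 (chr1:55088132-55091307, plus strand) lie head to head, and these extents overlap at their 5′ ends. The heat shock element was spelt GAANNTTCNNGAA or TTCNNGAANNTTC, searched on both strands, where matches may overlap. It was found in 4 of 61 chaperone promoters (6.56%), those of Hspd1, Hspe1, Hsph1 and Dnajb6, against 104 of 17492 (0.595%). The stretch chr1:55088048-55088127 on the plus strand lies within that extent of Hspd1 but before the RefSeq start site of either gene. It is shown because its pair of overlapping matches, in capitals, stands before genes whose means differed in opposite directions, without either passing the test:
Hspe1 and Hspd1: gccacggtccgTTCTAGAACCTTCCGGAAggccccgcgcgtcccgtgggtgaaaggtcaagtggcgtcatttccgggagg
The Hsph1 match lies after the start site and the Dnajb6 match before it, in the windows chr5:149636266-149636565 (minus strand) and chr5:29735648-29735947 (plus strand):
Hsph1: ttctggaaagttc
Dnajb6: gaatcttccggaa
Log2 fold changes of the 4 genes were 0.19 for Hspd1, -0.90 for Hspe1, 0.12 for Hsph1 and 0.06 for Dnajb6. None of the 10 genes below the count minimum with a promoter in the table held a match, which says only that these letters are not in the windows.

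Small HSPs, which hold unfolded proteins without using ATP, were few and low. Hspb6 had 12.7, 12.8 and 37.2 CPM in Mir libraries, against 11.6, 15.49 and 13.97 CPM in Scr libraries. Mir replicate 3 alone was high. The log2 fold change was 0.61 ± 0.42, and -0.10 without that library. Hspb8, which works with Bag3, had 0.445, 1.92 and 1.42 CPM in Mir libraries, against 1.95, 1.81 and 1.505 CPM in Scr libraries. Hspb11, a component of intraflagellar transport despite its name, had 15.3, 13.4 and 12.7 CPM in Mir libraries, against 15.7, 15.9 and 15.9 CPM in Scr libraries, at -0.20 ± 0.15 (edgeR adjusted p = 0.576). Of the 13 matched genes below the minimum, 5 were small HSPs: Hspb1, Hspb2, Hspb3, Hspb7 and Hspb9.

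The regulators of the response differed little. Hsf1, the master factor of the heat shock response, had 88.5, 88.8 and 80.4 CPM in Mir libraries, against 79.8, 74.0 and 71.6 CPM in Scr libraries. The groups were separate by a small margin, and the log2 fold change was 0.19 ± 0.09 (edgeR adjusted p = 0.371). Hsf2, a related factor with roles in development of the mouse cortex, had 53.9, 48.2 and 36.4 CPM in Mir libraries, against 59.0, 45.5 and 46.4 CPM in Scr libraries, at -0.12 ± 0.17. Bag3, an HSP70 cofactor induced by HSF1, had 2.23, 3.13 and 1.83 CPM in Mir libraries, against 1.87, 2.82 and 0.783 CPM in Scr libraries. Hspbp1 and Hspbap1, cofactors of HSP70 and of a small HSP, had log2 fold changes of -0.004 and 0.04.

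Genes that work with the chaperones were counted in 5 lists, and edgeR called none of their members. Over all genes tested, 48.8% had the higher mean in Mir. Of 17 tested targets of the heat shock response, chaperone genes included, 9 had the higher and 8 the lower mean in Mir, with a median of 0.01; without Mir replicate 3 and Scr replicate 2, 7 were higher and the median was -0.10. Of 28 HSP90 and HSP70 co-chaperones, 11 were higher and 17 lower, with a median of -0.02. Chordc1, a co-chaperone of HSP90, had 126, 121 and 120.0 CPM in Mir libraries, against 145, 130.4 and 143 CPM in Scr libraries, at -0.19 ± 0.08 (edgeR adjusted p = 0.348). St13, which bridges HSP70 to HSP90, was at -0.17 ± 0.08. Of 14 prefoldin subunits and CCT or tubulin cofactors, 5 were higher and 9 lower, with a median of -0.05. Tbce, a tubulin-folding cofactor that acts after TRiC, had 97.7, 99.2 and 85.2 CPM in Mir libraries, against 78.4, 71.0 and 75.9 CPM in Scr libraries, at 0.33 ± 0.10 (edgeR adjusted p = 0.240). Its partner Tbcb was lower in every Mir library, at -0.13 ± 0.08.

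The ER and mitochondrial lists each held 1 gene that DESeq2 called and edgeR did not. DESeq2 called 1.46% of all genes tested higher in Mir and 1.97% lower. Of 19 genes of ER folding and the unfolded protein response, 12 were higher and 7 lower, with a median of 0.10. Xbp1, whose spliced transcript encodes a factor of that response, had 132, 133 and 127 CPM in Mir libraries, against 194, 202 and 161 CPM in Scr libraries. Every Mir library lay well below every Scr library, and the log2 fold change was -0.51 ± 0.10 (adjusted p = 0.195 in edgeR and 0.00232 in DESeq2). Over all alternatives its adjusted p ranged from 0.00232 to 0.579. Gene counts do not separate its spliced from its unspliced form. Eif2ak3, the stress sensor PERK, was higher in every Mir library, at 0.38 ± 0.14 (edgeR adjusted p = 0.290). Of 9 mitochondrial proteases and stress genes, 8 were higher, with a median of 0.14, or 7 with a median of 0.09 without Mir replicate 3 and Scr replicate 2. Spg7, a subunit of the inner-membrane m-AAA protease, had 71.4, 78.7 and 73.9 CPM in Mir libraries, against 61.0, 58.3 and 52.3 CPM in Scr libraries, at 0.38 ± 0.10 (adjusted p = 0.212 in edgeR and 0.0385 in DESeq2). Over all alternatives that p ranged from 0.0385 to 0.581. Lonp1, the matrix protease, had 107, 96.1 and 118 CPM in Mir libraries, against 84.0, 91.7 and 84.5 CPM in Scr libraries, at 0.31 ± 0.10 (edgeR adjusted p = 0.268).

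The hairpin's mature strand, read from the oligonucleotide in the labels, was compared with 3′ UTRs of the chaperone genes, since microRNAs act mainly through pairing of bases 2 to 8, the seed, in capitals:
miR-3607 hairpin, mature strand: gCATGTGAtgaagcaaatcagt
Matches of at least 7 bases (TCACATG or CACATGA) occurred in the 3′ UTR of 14 of 71 chaperone genes (19.7%) and of 2203 of 12751 genes tested (17.3%). The median log2 fold change was 0.03 for the 14 genes with a match and 0.03 for the others, and over all genes it was -0.03 with a match and 0.00 without. Of the 14, 5 had the lower mean in Mir, where 1211 of the 2203 genes with a match over all genes tested did. The single match of 8 bases (TCACATGA) lay in Cct8, at chr16:87483837-87483866 on the minus strand, and the match in Dnajc6, the lowest of the 14 in log2 fold change, lay at chr4:101641210-101641238 on the plus strand:
Cct8: tgtttaatcacTCACATGActgttctcatt
Dnajc6: tataacccaagCACATGAtaaagaaatca
Cct8 had 707, 664 and 719 CPM in Mir libraries, against 682, 686 and 770 CPM in Scr libraries, at -0.03 ± 0.08. Hspa5, Hspd1, Hsf2 and Dnaja1 also held matches, with log2 fold changes of 0.03, 0.19, -0.12 and -0.15.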

How the data were processed

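For the 6 libraries the authors deposited raw counts of reads for each gene. Per the labels' protocols, libraries were built with SMART-seq v4 and sequenced as 50 bp single reads. Reads were placed on mm10, and HISAT2 2.1.0, DESeq2 1.18.1 and HTSeq 0.11.0 are listed, per the submitters' processing notes. For the annotation and strand setting, nothing is given in the sources used here. Lines that name no gene were left out: 28.8 to 31.6% of reads lay in no feature and 39.3 to 44.4% were not uniquely placed, leaving 21.9 to 23.6% in genes, so genes with near-identical copies are undercounted.

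Symbols, positions and exon lengths came from GENCODE M21 (GRCm38) and promoters from RefSeq (GRCm38.p6). CPM used TMM-scaled library sizes. Tests used edgeR 4.0.16 (quasi-likelihood, group only, filterByExpr, two-sided, Benjamini-Hochberg over 16897 genes) in R 4.3.3. The fit was tested on simulated data. The p-values rest on the variation among pooled samples of embryos. Alternatives were DESeq2 1.42.0, limma-voom 3.58.1, other scalings and filters, a replicate block, and left-out libraries.

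The chaperone genes and lists were chosen with earlier results of these data known. Named genes were those fixed by role, the 12 with the smallest p among genes with separate groups, the 8 of highest level, the 5 of widest spread, and the 2 with the smallest p of each other list; other chaperone genes were named to complete a family.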

Additional observations from a re-analysis of the deposited data

How the results depend on the processing

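Over all 16897 genes the number of calls depended on the method: edgeR called 1 gene, limma-voom 0, edgeR without a filter on low counts 31, DESeq2 580, and edgeR without Mir replicate 3 and Scr replicate 2 together 32, and 0 to 2 when single libraries were left out. Among the chaperone genes the number was 0 in each of these. Their median log2 fold change was 0.03, from -0.013 to 0.076 when single libraries were left out and -0.004 without Mir replicate 3 and Scr replicate 2. The cause of these shifts was not tested.

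Replicate numbers did not pair the samples: the deviations of same-numbered libraries correlated at 0.21, -0.14 and -0.11. A fit with replicate number as a block called 0 genes over all and 0 chaperone genes.

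Of 46 named genes, 34 kept the sign of their fold change under every alternative, and 12 did not, among them Hspb6, whose sign turned only where Mir replicate 3 was left out. Lowest and highest log2 fold changes without single libraries were -0.034 and 0.042 for Cct2, -0.034 and 0.128 for Cct5, -0.041 and 0.700 for Cct6b, -0.063 and 0.033 for Cct8, -0.013 and 0.121 for Dnajb1, -0.031 and 0.092 for Dnajc5, -0.246 and 0.022 for Hsf2, -0.129 and 0.052 for Hsp90aa1, -0.084 and 0.148 for Hspa5, -0.077 and 0.137 for Hspa8, -0.100 and 0.872 for Hspb6, and -0.018 and 0.121 for Tcp1. Without Mir replicate 3 and Scr replicate 2 the value was -0.044 for Cct5, -0.065 for Cct6b, -0.083 for Cct8, -0.004 for Dnajb1, -0.049 for Hspa5, -0.101 for Hspa8, -0.003 for Hspb6 and -0.002 for Tcp1. With upper-quartile scaling it was -0.009 for Dnajc5 and -0.008 for Hspa8, with a minimum of 50 counts -0.003 for Dnajc5 and -0.001 for Hspa8, and without a filter 0.006 for Cct2.

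With 3 pools a group, a biological coefficient of variation of 23.6% and levels such as those of Hspb8 or Bag3, small differences were not detectable, and an adjusted p above 0.05 does not show that levels were equal.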
